A study of Mus musculus with 24 samples.

Results

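Collagen chain genes were taken as every gene symbol that begins with Col, a number, the letter a and another number. The files held 44 such genes among 43280 symbols, and 28 of them had enough counts to be tested. By the type of collagen they build, 11 of the 44 were fibrillar, 9 belonged to basement membranes, 7 to type VI and its relatives, 9 to the fibril-associated collagens (FACIT), 4 were transmembrane and 4 were short-chain or unclassed. The tested chains numbered 8 fibrillar, 5 basement membrane, 6 type VI, 4 FACIT, 3 transmembrane and 2 short-chain chains.

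Poly(A) RNA of the distal colon of female C.B-17/Icr-scid/scid (SCID) mice, bought at 7 weeks of age and unable to form T and B lymphocytes of their own, was sequenced in 24 libraries, 4 per group. In 5 groups the mice had been injected with CD4+ T cells of BALB/c females, which had first been activated for 3 days with concanavalin A at 4 μg/mL and IL-2 at 10 ng/mL. Of these, MEKi 1 and MEKi 0.3 received enteric microparticles of a MEK inhibitor by mouth at 1 and 0.3 mg/kg daily over days 17 to 27. The kinase MEK activates ERK. Vehicle received 0.5% methylcellulose, and anti-TNF and Isotype received 0.1 mg per mouse of an anti-TNFa antibody or an isotype control antibody by intraperitoneal injection, repeated at 4-day intervals, the first at day 17. Colons were collected at day 28. Normal mice were SCID mice that received no treatment. The labels do not say that the replicates of a group are separate animals, so the p-values measure the spread between these libraries, which may be partly technical.

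Collagens are triple helices wound from 3 alpha chains, each the product of its own gene. Fibrillar chains of types I, III and V are made largely by fibroblasts and form the fibres of the gut wall. The alpha 1 and alpha 2 chains of type IV form the sheet-like network under epithelia, around vessels and around muscle cells, and types XV and XVIII attach to it. Type VI forms beaded filaments between cells and fibres, FACIT chains coat fibrils, and transmembrane chains sit in cell membranes. In inflamed intestine, collagen production and breakdown by stromal cells are known to change.

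Library totals were 3052940 to 10587555 counts. They were 6139216 to 10587555 in Isotype and anti-TNF and 3052940 to 5840995 in the other groups, without overlap. The comparisons of Isotype or anti-TNF with Normal and of Isotype with Vehicle cross this split in depth. Fits with all libraries thinned to the smallest total were among the alternatives. In these fits Col5a2, Col6a5 and Col11a2 no longer passed in Isotype against Normal, nor did Col6a1 in anti-TNF against Normal. A gene's level is given as CPM, its counts scaled to a common library total with TMM factors. In 16 of 24 cases a table of the whole series gives a library another name than the sample's own file does, and the samples' own files were followed. Summed levels of 7 T cell genes were 9.49 to 12.5 CPM in the libraries filed as Normal and 44.5 CPM or more in the other 20 libraries. The 2 libraries that the table, but not their own files, calls Normal had 94.4 and 108 CPM. With the table's names no collagen chain passed the test in any comparison. The table also exchanges replicates 1 and 2 of anti-TNF with replicates 3 and 4 of Isotype, where the T cell genes do not tell the labellings apart. It names replicates 1 and 2 of Vehicle as MEKi 0.3 and replicates 3 and 4 of Vehicle as MEKi 1. Replicates 3 and 4 of MEKi 0.3 are named Vehicle there, and replicates 1 and 2 of MEKi 1 are named MEKi 0.3. These names were not checked further, and the comparisons of MEKi with Vehicle rest on the samples' own files. Vehicle replicate 4 and Isotype replicate 1 carried 5642 and 4351 CPM of 9 pancreas transcripts, against 0.823 to 114 CPM in the other libraries. Both were among the libraries highest in collagens, and counts without them are given beside the comparisons where they differ. How the counting treated strand is not given in the sources used here. Other annotated genes share 141 of the 9816 exon bases of Col3a1, 99 and 113 of the 8490 of Col5a1 and 79 of the 5142 of Col20a1. They also share 43 of the 6619 of Col4a2, 14 of the 6349 of Col15a1 and 127 and 162 of the 8526 of Col6a4. Col4a1 and Col4a2 share 22 bases with each other. With the treatment of strand unknown, reads there cannot be told apart. In a bulk sample, fewer cells of a type and less RNA per cell cannot be told apart.

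Type IV chains are shown first in sequence because their 2 main genes share a start. Col4a1 (chromosome 8, 11198423 to 11312826, minus strand) and Col4a2 (chromosome 8, 11312805 to 11449287, plus strand) run away from each other in GENCODE M21 on mm10, and their annotated ends overlap by 22 bases, printed here from the plus strand (chr8:11312805-11312826, GRCm38.p6). Col4a3 and Col4a4 lie head to head 71 bases apart, and Col4a5 and Col4a6 lie head to head 1308 bases apart. The other sequences are stretches before the RefSeq starts of chains whose levels carry the results. Among these, Col18a1 had a larger estimated rise in Vehicle over Normal than the main chains of types I and IV, a ranking that was not tested. The stretches are those of Col1a2, the alpha 2 chain of type I (chr6:4505370-4505492, plus strand), of Col18a1 (chr10:77166549-77166780, minus strand), and of the neighbours Col6a1 (chr10:76726169-76726294, minus strand) and Col6a2 (chr10:76623631-76623880, minus strand), which lie 85161 bases apart. Each is the longest stretch, free of annotated exons, of the 250 bases before the RefSeq start, read 5′ to 3′ on the gene's strand. The Col1a2 stretch lies inside the gene as GENCODE M21 annotates it, which starts further upstream, between annotated exons. Capitals mark matches on either strand to the letters GGGCGG of the GC box, to CCAAT, known as the CCAAT box, to TATAAA of the TATA box or to the AP-1 motif TGANTCA, where N stands for any base. No match of one motif shared bases with another in the printed stretches.
Col4a1 and Col4a2 overlap: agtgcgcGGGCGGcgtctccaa
Col1a2: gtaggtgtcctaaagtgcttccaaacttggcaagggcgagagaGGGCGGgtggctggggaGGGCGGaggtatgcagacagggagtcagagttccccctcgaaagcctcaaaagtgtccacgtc
Col18a1: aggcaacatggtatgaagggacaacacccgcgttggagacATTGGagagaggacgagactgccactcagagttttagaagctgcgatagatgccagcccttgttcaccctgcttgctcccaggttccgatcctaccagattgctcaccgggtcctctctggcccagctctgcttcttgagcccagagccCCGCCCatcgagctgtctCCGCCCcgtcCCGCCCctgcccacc
Col6a1: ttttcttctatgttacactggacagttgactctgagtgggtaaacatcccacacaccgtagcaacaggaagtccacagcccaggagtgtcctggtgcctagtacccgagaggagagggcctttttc
Col6a2: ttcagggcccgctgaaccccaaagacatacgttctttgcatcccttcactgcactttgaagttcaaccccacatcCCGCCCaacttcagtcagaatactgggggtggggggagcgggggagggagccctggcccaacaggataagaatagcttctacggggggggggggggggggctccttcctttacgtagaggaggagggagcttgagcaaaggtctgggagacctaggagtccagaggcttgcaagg
The overlap held 1 GC box, the Col1a2 stretch 2, the Col18a1 stretch 3 and 1 CCAAT box, and the Col6a2 stretch 1 GC box. The Col6a1 stretch held none of the 4 motifs, but the exon bases left out of its window held 1 AP-1 match, at position -90. Those left out of the Col1a2 window held 1 CCAAT box, at position -109. A further Col6a2 window, not printed, held 3 GC boxes, and a further Col18a1 window held none of the motifs. Of 38 such windows of 250 bases in 35 collagen genes, 57.9% held a GC box, 34.2% a CCAAT box, 13.2% a TATA box and 2.63% an AP-1 match. Over all 32851 windows the shares were 32.7%, 33.8%, 12.4% and 6.75%. A match is a run of letters and not a site of binding.

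Colitis without drug treatment was read from Vehicle against Normal. Of the 28 tested chains, 9 rose and 6 fell, by edgeR's quasi-likelihood test with Benjamini-Hochberg adjustment at 0.05. Over all 14773 tested genes, 46.4% passed the same test, 23.1% higher and 23.3% lower, a large share of all genes. The main chains of types I and IV and Col18a1 rose, while Col6a1, Col6a2, Col14a1 and Col20a1 fell. The median log2 fold change was 0.10 over the 28 chains, and 0.0017 over all tested genes.

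Type I collagen, the bulk fibre of scar and connective tissue, rose in both of its chains. Col1a1 (chromosome 11, 94936224 to 94953042) stood at 457, 229, 243 and 500.4 CPM in Vehicle, against 140.4, 176, 188 and 105 CPM in Normal. Every Vehicle library lay above every Normal library, and the log2 fold change was 1.23 ± 0.30 (adjusted p = 0.00241). Its partner Col1a2 (chromosome 6, 4504814 to 4541544) stood at 443, 325, 267 and 522 CPM in Vehicle, against 216, 254, 256 and 185 CPM in Normal, again without overlap, with a log2 fold change of 0.77 ± 0.21 (adjusted p = 0.00474). Col5a2, a type V chain that sits inside type I fibrils, rose by 0.67 ± 0.24 (adjusted p = 0.0281) on the log2 scale, but its groups overlapped, at 109, 83.0, 69.9 and 112 CPM in Vehicle and 57.8, 51.6, 80.8 and 44.1 CPM in Normal. This call was lost without Vehicle replicate 1 or 4 or Normal replicate 1, 2 or 4, at adjusted p up to 0.0955. Col3a1 (chromosome 1, 45311538 to 45349706), the type III chain of pliable fibres and the most abundant chain per kilobase of transcript in all 6 groups, did not pass. It had 1137, 598, 539 and 912 CPM in Vehicle and 594, 691, 766 and 378 CPM in Normal, a log2 difference of 0.39 ± 0.31 (adjusted p = 0.306). Col5a1, the partner of Col5a2, had 114, 68.0, 63.4 and 99.4 CPM in Vehicle and 72.7, 59.0, 73.4 and 54.3 CPM in Normal, overlapped, and did not pass either, at 0.41 ± 0.25 (adjusted p = 0.18). Of the 8 tested fibrillar chains, 3 rose and none fell, and Col5a3, Col11a2 and Col27a1 did not pass. Their median log2 fold change was 0.54.

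Among basement membrane chains, both main type IV chains and Col18a1 rose and Col4a5 fell. Col18a1 (chromosome 10, 77052178 to 77166548), the source of the fragment endostatin, stood at 219, 145, 111 and 195 CPM in Vehicle, against 58.9, 56.0, 61.5 and 39.8 CPM in Normal, with no overlap and a log2 fold change of 1.64 ± 0.31 (adjusted p = 0.000321). Col4a1 stood at 472, 315, 274 and 488 CPM in Vehicle, against 209, 208, 213 and 160.4 CPM in Normal, and Col4a2 at 356, 218, 201 and 399 CPM in Vehicle, against 168, 148, 174 and 116 CPM in Normal. In both genes each Vehicle library was above each Normal library, and the log2 fold changes were 0.97 ± 0.24 (adjusted p = 0.0025) for Col4a1 and 0.95 ± 0.25 (adjusted p = 0.00338) for Col4a2. Col4a5 (chromosome X, 141475385 to 141689234), whose chain builds a separate type IV network in basement membranes such as those of smooth muscle and kidney, went the other way. It stood at 4.53, 4.92, 2.49 and 3.84 CPM in Vehicle, against 16.6, 16.1, 12.9 and 10.2 CPM in Normal, a log2 fold change of -1.80 ± 0.38 (adjusted p = 0.00064), without overlap. Col15a1, which links basement membranes to the fibres beneath, had 56.0, 39.8, 42.8 and 47.1 CPM in Vehicle and 38.2, 38.9, 51.9 and 33.9 CPM in Normal, overlapped, and did not pass, at 0.19 ± 0.24 (adjusted p = 0.553). The median log2 fold change of the 5 tested chains was 0.95.

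Within type VI, the 2 most abundant chains fell and the 2 rarer chains Col6a4 and Col6a5 rose. Col6a1 (chromosome 10, 76708792 to 76726168) stood at 145, 137, 164 and 164 CPM in Vehicle, against 227, 249, 281 and 203 CPM in Normal, a log2 fold change of -0.66 ± 0.18 (adjusted p = 0.00513). Col6a2 stood at 135, 129.9, 128 and 111 CPM in Vehicle, against 195, 217, 237 and 152 CPM in Normal, a log2 fold change of -0.67 ± 0.19 (adjusted p = 0.00563). For both chains all 4 Vehicle libraries lay under all 4 Normal libraries. Col6a3, the third chain of the common type VI molecule, had 74.1, 57.8, 50.2 and 84.6 CPM in Vehicle and 73.3, 82.5, 113 and 60.2 CPM in Normal, overlapped, and did not pass, at -0.30 ± 0.21 (adjusted p = 0.241). Col6a4 stood at 16.1, 18.8, 15.7 and 16.6 CPM in Vehicle, against 9.06, 7.38, 6.99 and 7.82 CPM in Normal, and rose by 1.10 ± 0.24 (adjusted p = 0.000801) on the log2 scale. Col6a5, an alternative to Col6a3 in the type VI molecule, stood at 21.2, 24.1, 23.1 and 17.6 CPM in Vehicle, against 12.1, 7.04, 13.8 and 11.1 CPM in Normal, and rose by 0.94 ± 0.26 (adjusted p = 0.00453). Of the 6 tested chains 2 rose and 2 fell, with a median log2 fold change of -0.24.

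The largest falls were in FACIT and short-chain genes. Col14a1 (chromosome 15, 55307750 to 55520803), a FACIT chain found on type I fibrils, stood at 13.2, 9.09, 15.4 and 11.1 CPM in Vehicle, against 53.9, 57.3, 48.4 and 46.3 CPM in Normal. The groups were far apart, with a log2 fold change of -2.08 ± 0.34 (adjusted p = 7.53e-05). Col20a1, another FACIT chain, had 2.06, 1.52, 2.24 and 2.83 CPM in Vehicle, against 16.2, 9.72, 16.4 and 9.13 CPM in Normal, a log2 fold change of -2.57 ± 0.49 (adjusted p = 0.000227). Col8a2, a short chain of networks under endothelia, had 1.24, 0.758, 0.994 and 0 CPM in Vehicle, against 5.39, 3.02, 3.87 and 3.48 CPM in Normal, and fell by 2.40 ± 0.61 (adjusted p = 0.00293) on the log2 scale. Col17a1, the transmembrane collagen of hemidesmosomes in epithelial cells, rose: it had 2.88, 3.60, 1.99 and 4.04 CPM in Vehicle, against 0.431, 0.671, 1.10 and 0.652 CPM in Normal, without overlap, a log2 fold change of 2.08 ± 0.40 (adjusted p = 0.000244). Neither the FACIT chains Col12a1 and Col16a1 nor Col8a1, Col13a1, Col23a1 and Col28a1 passed. Over all chains that did not pass, the log2 difference ran from -0.40 for Col23a1 to 0.92 for Col13a1. The median of the 4 tested FACIT chains was -1.23.

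**Figure D1:**
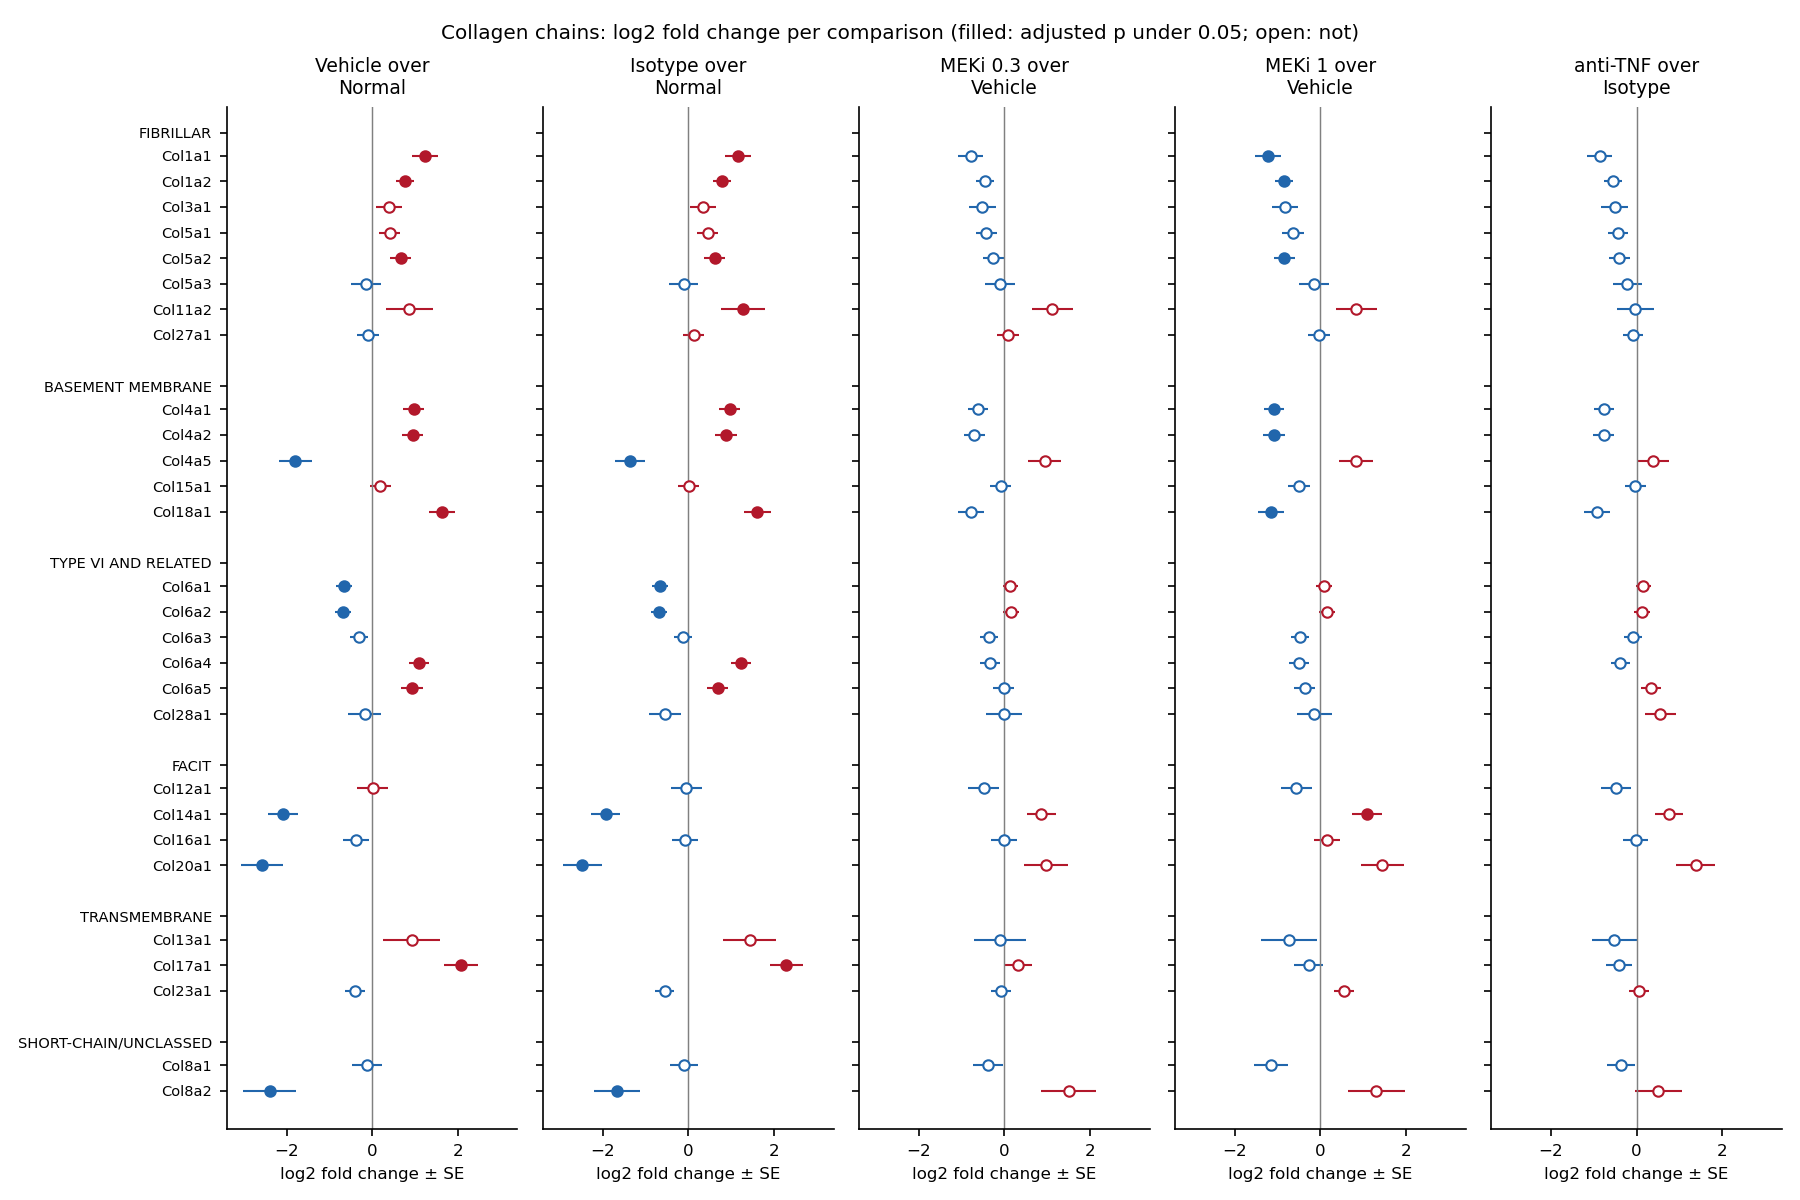
Log2 fold change ± SE (x axis, edgeR) of the 28 tested collagen chains (y axis, by class) in 5 comparisons, with filled points for adjusted p under 0.05. In Vehicle over Normal 9 chains are filled on the right and 6 on the left, in MEKi 1 over Vehicle 1 on the right and 6 on the left, and no point is filled in MEKi 0.3 over Vehicle or anti-TNF over Isotype.

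Isotype, the other colitis group without an active drug, was compared with the same Normal libraries, so its differences share that side with the comparison of Vehicle. Of the 28 chains, 10 rose and 6 fell, where 41.2% of all genes passed, 20.9% higher and 20.3% lower. Col17a1 rose by 2.30 ± 0.38 (adjusted p = 7.63e-05), Col6a4 by 1.24 ± 0.24 (adjusted p = 0.000283) and Col18a1 by 1.61 ± 0.31 (adjusted p = 0.000439). Col14a1 fell by 1.93 ± 0.33 (adjusted p = 0.00013), Col20a1 by 2.47 ± 0.46 (adjusted p = 0.000227) and Col4a5 by 1.36 ± 0.36 (adjusted p = 0.00436). The type I and IV chains were higher in Isotype with a wide spread. Col1a1 stood at 592, 222, 354 and 194 CPM in Isotype, against 140.4, 176, 188 and 105 CPM in Normal, a log2 fold change of 1.16 ± 0.30 (adjusted p = 0.00439), and Col4a1 at 654, 285, 376 and 235 CPM in Isotype, against 209, 208, 213 and 160.4 CPM in Normal, a log2 fold change of 0.97 ± 0.24 (adjusted p = 0.00298). In each of these genes Isotype replicate 1 was the highest library. Without it, Col1a1 was 0.75 and Col4a1 0.60 higher on the log2 scale, and both still passed. The calls of Col4a2, Col8a2, Col6a5 and Col5a2 were lost without it, that of Col8a2 also without Normal replicate 1. Col11a2, a minor fibrillar chain, rose in Isotype by 1.29 ± 0.52 (adjusted p = 0.0478), a call lost without any of Isotype replicates 2 and 4 and Normal replicates 2, 3 and 4. The calls of Col5a2 and Col6a5 were also lost without Normal replicate 2 or 4, that of Col5a2 without Normal replicate 1 or Isotype replicate 3, and that of Col6a5 without Isotype replicate 2 or 4. Without both libraries rich in pancreas transcripts, 8 chains rose and 6 fell in Isotype, and the calls of Col5a2 and Col6a5 were the ones lost. The marker lists moved here too: all 10 smooth muscle markers, all 4 tested adipocyte markers, 3 of 6 pericyte markers, 3 of 5 tested enteric markers and 4 of 8 tested fibroblast markers fell, while Grem1, all 7 T cell markers and 6 of 7 myeloid markers rose. Smooth muscle markers summed to 1462 to 2723 CPM in Isotype, against 7422 to 9026 CPM in Normal, and their part in the falls of Col14a1, Col20a1 and Col4a5 was not tested. Set against each other, Isotype and Vehicle gave no chain past the threshold, where 2.99% of all genes passed, 1.32% higher and 1.67% lower. At an unadjusted p under 0.05 there were 0 chains, beside 2576 of all 14773 genes, and DESeq2 and limma-voom called 0 chains. The 3 chains with the smallest p were Col4a5 at 0.44 ± 0.38 (adjusted p = 0.605), Col8a2 at 0.73 ± 0.65 (adjusted p = 0.607) and Col6a5 at -0.25 ± 0.24 (adjusted p = 0.645).

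**Figure D2:**
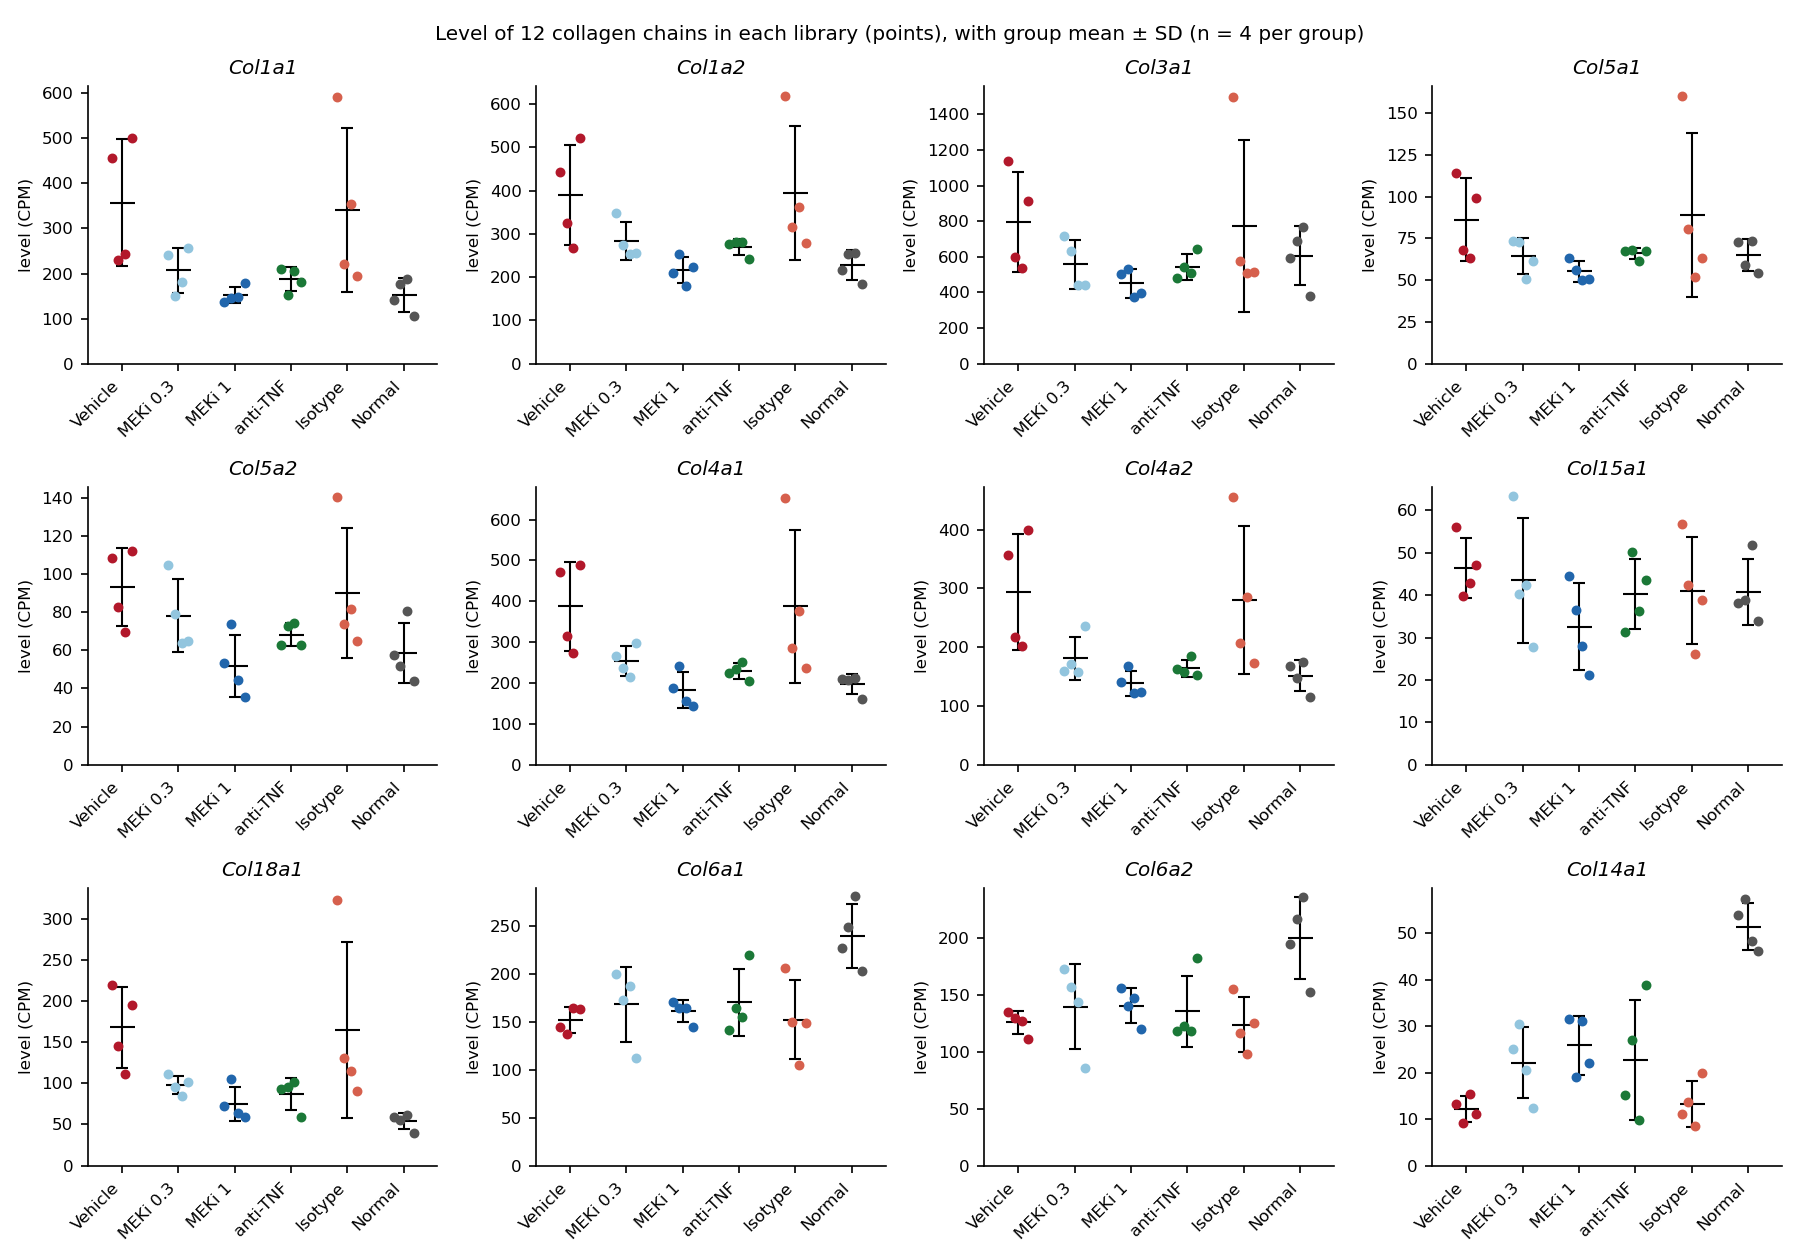
Level in CPM (y axis, from 0) of 12 collagen chains in each of the 24 libraries (points), with the mean ± SD of the 4 libraries of a group. Col1a1 in Vehicle ranges up to 500.4 CPM, against at most 188 CPM in Normal, and Col6a1, Col6a2 and Col14a1 stand highest in Normal.

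Summed by class, the balance between collagens differed between groups. Fibrillar chains summed to 1747 ± 562 CPM in Vehicle and 1136 ± 260.1 CPM in Normal (SD, n = 4 each), with ranges of 1204 to 2290.0 CPM and 786 to 1393 CPM that overlapped. Basement membrane chains summed to 899 ± 259 CPM in Vehicle and 461 ± 69.0 CPM in Normal, and the lowest Vehicle library, at 631 CPM, was above the highest Normal library, at 516 CPM. Type VI and related chains summed to 386 ± 12.8 CPM in Vehicle and 545 ± 90.7 CPM in Normal, with all Vehicle libraries under all Normal ones. FACIT chains summed to 90.9 ± 29.7 CPM in Vehicle and 147 ± 15.6 CPM in Normal. As a share of all collagen counts, type VI made 13.0% ± 3.30 in Vehicle and 23.7% ± 1.20 in Normal, basement membrane chains 28.6% ± 0.822 in Vehicle and 20.1% ± 1.23 in Normal, and fibrillar chains 55.1% ± 2.86 in Vehicle and 48.8% ± 2.60 in Normal. In MEKi 1 the type VI share was 20.4% ± 1.90. A sum follows the most abundant chains of its class, chiefly Col3a1, Col4a1 and Col6a1.

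**Figure D3:**
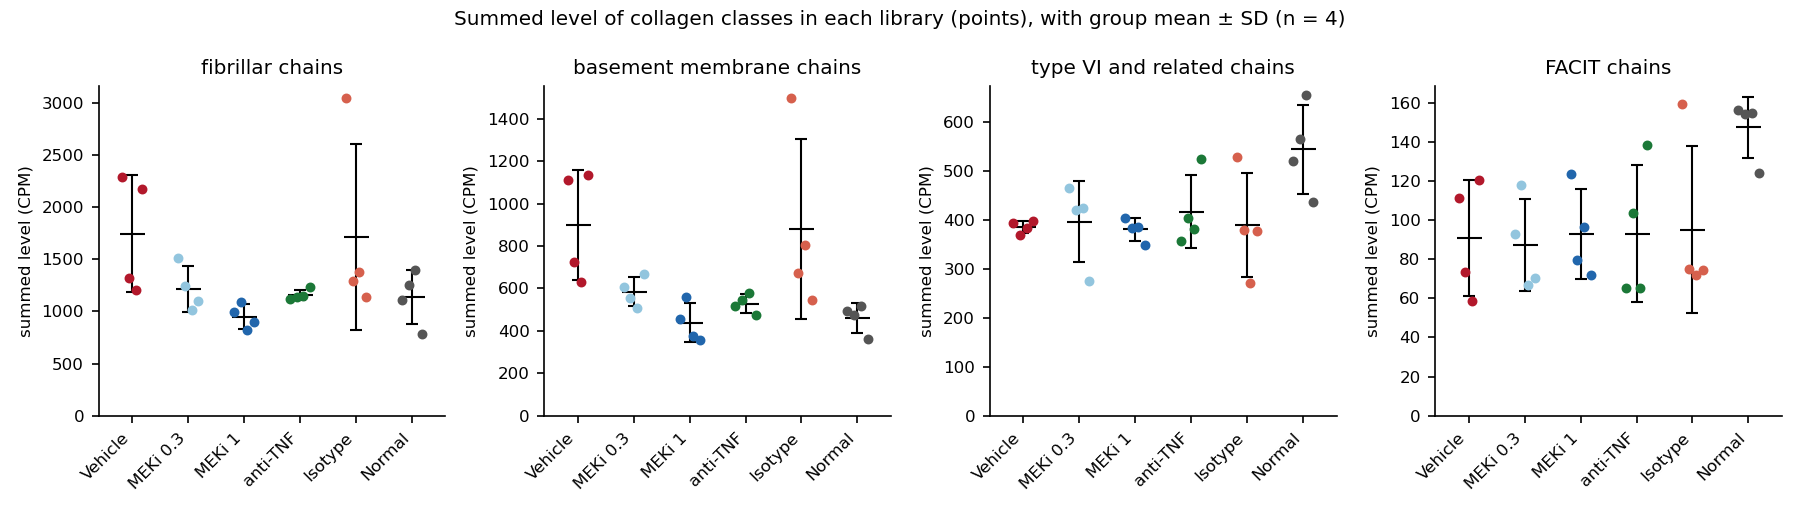
Summed level in CPM (y axis, from 0) of 4 collagen classes in each library (points), with mean ± SD (n = 4 per group). Basement membrane sums run from 631 to 1133 CPM in Vehicle, against 361 to 516 CPM in Normal, and the mean type VI and FACIT sums are highest in Normal.

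The ratios of Col4a2 to Col4a1 and of Col6a2 to Col6a1 had similar means in all groups, while others differed. Col4a2 per Col4a1, chains that wind together into one molecule, was 0.749 ± 0.0526 in Vehicle and 0.765 ± 0.0548 in Normal, and its group means ran between 0.712 and 0.772 over all 6 groups. Col6a2 per Col6a1 was 0.835 ± 0.128 in Vehicle and 0.831 ± 0.0541 in Normal, with group means of 0.795 to 0.871. Col1a1 per Col1a2, also chains of one molecule, was 0.901 ± 0.139 in Vehicle and 0.661 ± 0.0713 in Normal, with ranges of 0.706 to 1.03 in Vehicle and 0.568 to 0.734 in Normal that overlapped. Col3a1 per Col1a1 was 2.49, 2.61, 2.22 and 1.82 in Vehicle, against 4.23, 3.92, 4.08 and 3.61 in Normal, with no overlap. Col4a5 per Col4a1 was 0.0105 ± 0.00346 in Vehicle and 0.0704 ± 0.00959 in Normal, again without overlap. These are ratios of CPM, not corrected for transcript length, and no test was run on them.

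**Figure D4:**
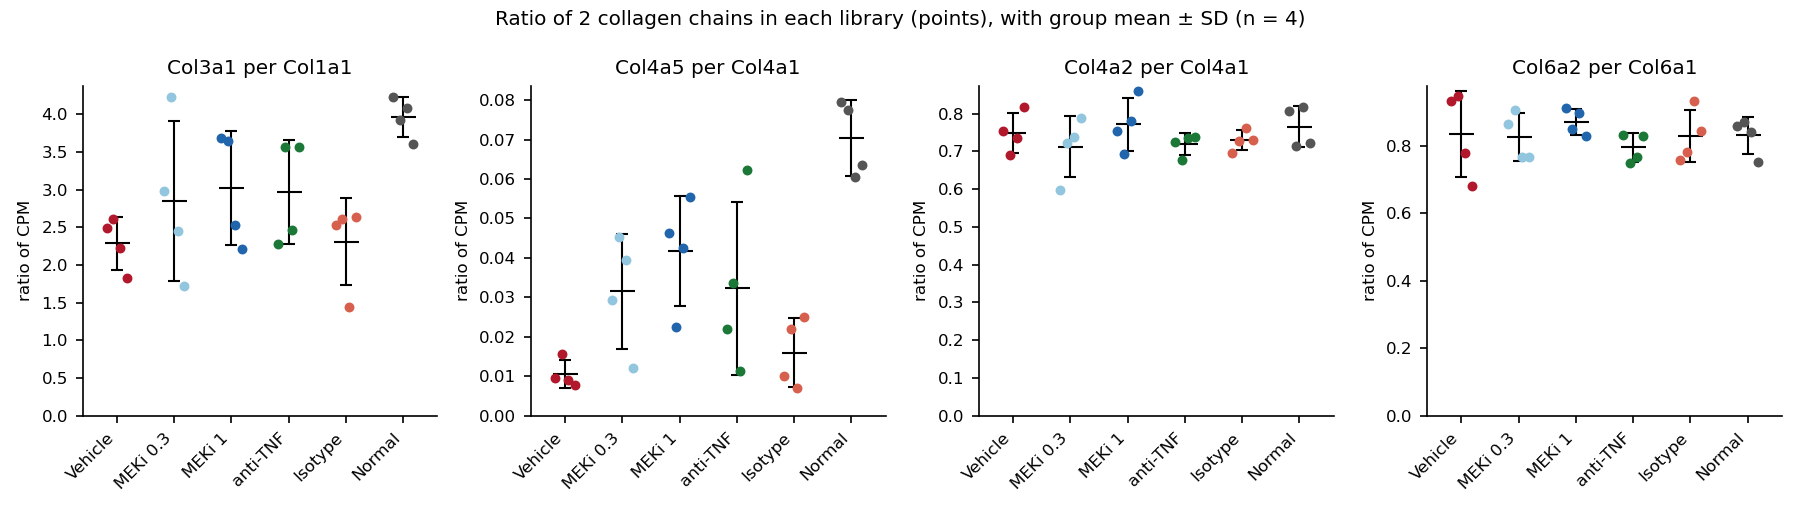
Ratio of the CPM of 2 chains (y axis, from 0) in each library (points), with mean ± SD (n = 4 per group). Col3a1 per Col1a1 lies at 1.82 to 2.61 in Vehicle, against 3.61 to 4.23 in Normal, while Col4a2 per Col4a1 and Col6a2 per Col6a1 have similar means in all groups.

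Per kilobase of transcript, the order of the chains also differed. In Vehicle, Col3a1 led at 143 ± 50.3 CPM per kb, followed by Col1a2 at 72.8 ± 21.5, Col1a1 at 60.3 ± 23.8, Col4a1 at 58.5 ± 16.4, Col4a2 at 45.5 ± 15.3 and Col6a1 at 37.2 ± 3.33. In Normal, Col3a1 led at 109 ± 30.2 CPM per kb, followed by Col6a1 at 58.6 ± 8.12, Col1a2 at 42.6 ± 6.35, Col6a2 at 40.8 ± 7.37, Col4a1 at 29.8 ± 3.74 and Col1a1 at 25.7 ± 6.32. From Col1a2 down to Col6a1 in Vehicle, each chain's mean lies within 1 SD of the next, taking the larger SD of the pair. In Normal the same holds for Col1a2 and Col6a2 and for Col4a1 and Col1a1. This SD is between libraries, while the chains were measured in the same libraries, so it does not judge their order within a library. Col4a2 per Col4a1 was 0.691 to 0.818 in Vehicle, at transcript lengths of 6450 and 6615 bases. Col4a1 thus led Col4a2 per kilobase in each Vehicle library.

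Transcripts of the smooth muscle layers were also lower in Vehicle than in Normal. All 10 smooth muscle markers fell in Vehicle, and their summed level was 1545 to 3408 CPM in Vehicle, against 7422 to 9026 CPM in Normal. The marker counts stand beside the 46.4% of all genes that passed in Vehicle against Normal, 23.1% higher and 23.3% lower. All 4 tested adipocyte markers (of 5), 4 of the 5 tested markers of enteric neurons and glia (of 6) and 3 of 6 pericyte markers also fell, and none of them rose. Of 8 tested fibroblast markers (of 10), Grem1, a BMP antagonist, rose and Cd34 and Dpt fell. Fibroblast markers summed to 493 to 780 CPM in Vehicle and 581 to 648 CPM in Normal. Of 8 endothelial markers, Plvap rose and Vwf fell. Of 10 colon epithelium markers 2 rose and 2 fell, and these markers summed to 15878 to 23399 CPM in Vehicle and 18914 to 22007 CPM in Normal, so the tissue carried its colonic transcripts. In either direction, the pericyte, fibroblast, endothelial and colon epithelium lists passed in shares near or under that of all genes. All 7 T cell markers and 6 of 7 myeloid markers rose. Of the other lists, 1 of 2 tested mesothelium markers and 2 of 2 tested skeletal muscle markers fell, 0 of 2 tested squamous markers passed, and 5 of 8 tested pancreas markers rose, with the sum in 1 Vehicle library. No smooth muscle, fibroblast or endothelial marker lacked counts in Vehicle or Normal, and 3 of the 7 T cell markers had none in Normal. The part of these cell types in the collagen differences was not tested.

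The higher dose of the MEK inhibitor was compared with Vehicle, with the same 4 Vehicle libraries as above. In MEKi 1, 6 chains fell and 1 rose, where 10.6% of all genes passed, 4.51% lower and 6.08% higher. The 6 that fell were the chains of type I, the main chains of type IV, Col18a1 and Col5a2, and the chain that rose was Col14a1. The median log2 fold change was -0.73 over the 8 fibrillar chains, -1.08 over the 5 basement membrane chains, -0.25 over the 6 type VI chains, 0.62 over the 4 FACIT chains and -0.42 over all 28, beside 0.0045 over all tested genes. With library totals alone as the scaling, 6 chains fell and none rose, and with offsets for transcript length and GC content 11 fell and none rose.

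Col4a1 stood at 187, 243, 156 and 143 CPM in MEKi 1, against 472, 315, 274 and 488 CPM in Vehicle, and Col4a2 at 141, 168, 122 and 123 CPM in MEKi 1, against 356, 218, 201 and 399 CPM in Vehicle. Both fell without overlap, Col4a1 by 1.09 ± 0.24 (adjusted p = 0.0142) and Col4a2 by 1.08 ± 0.25 (adjusted p = 0.0149) on the log2 scale. Col1a1 stood at 136, 146, 147 and 178 CPM in MEKi 1, a narrow range against 457, 229, 243 and 500.4 CPM in Vehicle, and fell by 1.24 ± 0.30 (adjusted p = 0.0198). Col1a2, at 209, 252, 180.3 and 223 CPM in MEKi 1, fell by 0.85 ± 0.21 (adjusted p = 0.0198), also with every library under every Vehicle library. Col18a1 stood at 72.5, 105, 63.8 and 59.5 CPM in MEKi 1, against 219, 145, 111 and 195 CPM in Vehicle, and fell by 1.16 ± 0.31 (adjusted p = 0.027). Col5a2, at 53.3, 73.7, 44.6 and 35.6 CPM in MEKi 1, overlapped Vehicle in 1 library and fell by 0.84 ± 0.25 (adjusted p = 0.0341). Col14a1 stood at 31.5, 19.0, 31.1 and 22.1 CPM in MEKi 1, against 13.2, 9.09, 15.4 and 11.1 CPM in Vehicle, and rose by 1.09 ± 0.35 (adjusted p = 0.0458).

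Type VI chains showed no call in this comparison. Col6a1 had 171, 165, 164 and 145 CPM in MEKi 1, and 145, 137, 164 and 164 CPM in Vehicle, with a log2 difference of 0.08 ± 0.18 (adjusted p = 0.789) and a 95% interval of -0.27 to 0.44. Col6a2 differed by 0.16 ± 0.19 (adjusted p = 0.584), and Col6a3 by -0.47 ± 0.21 (adjusted p = 0.138). Among the fibrillar chains, Col3a1 had 502, 533, 372 and 394 CPM in MEKi 1, every library under the lowest Vehicle library, but did not pass, at -0.82 ± 0.31 (adjusted p = 0.0801). Col5a1 differed by -0.64 ± 0.25 (adjusted p = 0.0894) and Col15a1 by -0.50 ± 0.25 (adjusted p = 0.173). The count of 7 calls rested on single libraries: it was 0 without MEKi 1 replicate 1 or 3 or Vehicle replicate 4, 1 without Vehicle replicate 1 and 4 without MEKi 1 replicate 4, and reached 9 without MEKi 1 replicate 2. The call of Col14a1 was lost without any single library other than MEKi 1 replicate 2, at adjusted p up to 0.152. Without both libraries rich in pancreas transcripts, 5 chains fell and none rose. The log2 fold change of Col4a1 stayed between -1.25 and -0.96 when any 1 library was left out, and that of Col1a1 between -1.40 and -1.03. Of the marker lists, 2 of 10 smooth muscle markers rose and 1 of 8 endothelial markers (Plvap), 1 of 6 pericyte markers (Kcnj8), 1 of 8 fibroblast markers (Grem1), 4 of 7 T cell markers and 5 of 7 myeloid markers fell. Over all genes, 6.08% rose and 4.51% fell in MEKi 1 against Vehicle. T cell markers summed to 50.2 to 117 CPM in MEKi 1, against 125 to 162 CPM in Vehicle, and smooth muscle markers to 2733 to 4567 CPM in MEKi 1, against 1545 to 3408 CPM in Vehicle. Endothelial markers summed to 141 to 184 CPM in MEKi 1, against 220 to 334 CPM in Vehicle, and the part of any of these in the collagen differences was not tested.

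At the lower dose, MEKi 0.3, no chain passed against Vehicle, where 0.00677% of all genes passed. By edgeR 9 chains had an unadjusted p under 0.05, beside 2639 of all 14773 genes. DESeq2 called 0 chains and limma-voom with sample weights called 6, 3 higher and 3 lower. The share of all genes called by limma-voom is not reported here. The smallest p belonged to Col4a2, at 159, 171, 158 and 236 CPM in MEKi 0.3 and -0.70 ± 0.25 (adjusted p = 0.193), Col1a1, at 241, 149.8, 181 and 257 CPM in MEKi 0.3 and -0.79 ± 0.30 (adjusted p = 0.204), and Col4a1, at 266, 236, 214 and 299 CPM in MEKi 0.3 and -0.61 ± 0.24 (adjusted p = 0.212). In these groups libraries with the same number had weak positive correlations over genes, but so did those of other comparisons, so pairing is not established. With the replicate block in the fit of all groups no chain passed, while a fit of these 2 groups alone gave 0 chains without the block and 3 lower and none higher with it, of 27 tested: Col18a1 at -0.73 (adjusted p = 0.027), Col1a1 at -0.73 (adjusted p = 0.0262) and Col4a1 at -0.58 (adjusted p = 0.0431). Without MEKi 0.3 replicate 4, 1 chain passed, Col4a2 (adjusted p = 0.0494).

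Set directly against each other, the doses did not differ in any chain past the threshold, where 0% of all genes passed. This comparison was added after the data had been seen. By edgeR, 2 chains had an unadjusted p under 0.05, beside 641 of all 14773 genes, and DESeq2 and limma-voom called 0 chains. The log2 difference of MEKi 1 over MEKi 0.3 was -0.45 ± 0.30 (95% interval -1.04 to 0.14, adjusted p = 1) for Col1a1 and -0.48 ± 0.24 (95% interval -0.95 to -0.0011, adjusted p = 1) for Col4a1. The Col4a1 interval uses the normal distribution and just excludes 0. By the F test, Col4a1 was not among the 2 chains with an unadjusted p under 0.05. The smallest p belonged to Col23a1, a transmembrane chain, at 0.63 ± 0.23 (adjusted p = 1), Col5a2 at -0.59 ± 0.25 (adjusted p = 1) and Col8a1, a short-chain collagen, at -0.78 ± 0.40 (adjusted p = 1). In order of dose, Col1a1 averaged 357 ± 141 CPM in Vehicle, 207 ± 50.1 CPM in MEKi 0.3 and 152 ± 18.3 CPM in MEKi 1, and Col18a1 averaged 168 ± 48.8, 98.0 ± 11.2 and 75.2 ± 20.7 CPM at the same 3 steps (SD, n = 4 each).

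Neutralising TNFa was compared with the isotype antibody. No chain passed in anti-TNF, where 0.0203% of all genes passed. By edgeR 7 chains had an unadjusted p under 0.05, beside 1653 of all 14773 genes, and DESeq2 and limma-voom called 0 chains. Col4a1 had 224, 233, 251 and 206 CPM in anti-TNF and 654, 285, 376 and 235 CPM in Isotype, a log2 difference of -0.76 ± 0.24 (95% interval -1.23 to -0.29, adjusted p = 0.253). Col4a2 differed by -0.77 ± 0.24 (95% interval -1.25 to -0.29, adjusted p = 0.253) and Col20a1 by 1.38 ± 0.46 (95% interval 0.49 to 2.27, adjusted p = 0.273). Col1a1, at 210.3, 152, 206 and 181 CPM in anti-TNF and 592, 222, 354 and 194 CPM in Isotype, differed by -0.86 ± 0.30 (95% interval -1.45 to -0.28, adjusted p = 0.292). In Col1a1, Col4a1 and Col4a2 the anti-TNF libraries lay close together and overlapped the range of Isotype, whose replicate 1 was the highest library. Col20a1 spread widely, at 2.02, 6.40, 3.06 and 12.7 CPM in anti-TNF and 2.09, 2.70, 2.25 and 2.20 CPM in Isotype. Its log2 difference ran from 0.73 to 1.66 when any 1 library was left out. The intervals of Col1a1, Col4a1 and Col4a2 lie under 0 with all 8 libraries, but these 3 differences rested in part on Isotype replicate 1. Without it, Col4a1 differed by -0.38 and Col4a2 by -0.43, 2 chains had an unadjusted p under 0.05 and neither was lower, beside 7 with 5 lower in the full set, and the median log2 difference over the 28 chains was 0.077 instead of -0.15. Without both libraries rich in pancreas transcripts, 3 chains had an unadjusted p under 0.05 and the median was 0.069. A p that misses the adjusted threshold does not show that the groups were alike. The effect of MEKi 1 over Vehicle minus that of anti-TNF over Isotype did not pass in any chain, where 0.0135% of all genes passed. By edgeR 0 chains had an unadjusted p under 0.05, beside 729 of all 14773 genes. DESeq2 called 0 chains and limma-voom 1. Without Isotype replicate 1, no chain passed either, but 11 chains had an unadjusted p under 0.05, all lower, and the median difference was -0.51 instead of -0.16. That number was 12, 8 of them lower, by limma-voom and 5, all lower, without both libraries rich in pancreas transcripts. For fits by limma-voom or without libraries, the numbers over all genes are not reported here. With all libraries, the difference of log2 fold changes was -0.37 ± 0.42 (95% interval -1.20 to 0.45, adjusted p = 0.941) for Col1a1 and -0.33 ± 0.34 (95% interval -0.99 to 0.34, adjusted p = 0.938) for Col4a1. The smallest p belonged to Col6a5 at -0.71 ± 0.35 (adjusted p = 0.934), Col8a1 at -0.79 ± 0.51 (adjusted p = 0.934) and Col23a1 at 0.50 ± 0.32 (adjusted p = 0.934).

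Against Normal, the treated groups had fewer chains past the threshold than Vehicle or Isotype, though the counts themselves were not tested against each other and all share the Normal libraries. In MEKi 0.3, 4 chains rose and 4 fell, where 19.9% of all genes passed, 10.8% higher and 9.06% lower. In MEKi 1, 2 rose and 3 fell, where 12.8% of all genes passed, 8.06% higher and 4.79% lower. In anti-TNF 3 rose and 3 fell, where 22.4% of all genes passed, 12.5% higher and 9.89% lower. Col17a1 rose in each: it had 2.74, 3.55, 1.02 and 3.11 CPM in MEKi 1, 2.77, 4.62, 4.13 and 4.35 CPM in MEKi 0.3 and 3.03, 3.44, 2.35 and 2.22 CPM in anti-TNF, against 0.431, 0.671, 1.10 and 0.652 CPM in Normal. Its log2 fold changes were 1.81 ± 0.41 (adjusted p = 0.00503) for MEKi 1, 2.40 ± 0.39 (adjusted p = 0.000105) for MEKi 0.3 and 1.89 ± 0.39 (adjusted p = 0.00137) for anti-TNF. In MEKi 1 the range of Col17a1 overlapped that of Normal, and its call there was lost by limma-voom with sample weights. Col6a1 fell in each, by 0.57 ± 0.18 (adjusted p = 0.0379) in MEKi 1, 0.51 ± 0.18 (adjusted p = 0.0466) in MEKi 0.3 and 0.50 ± 0.18 (adjusted p = 0.049) in anti-TNF, but with library totals alone as the scaling all 3 calls were lost, at adjusted p of 0.054, 0.0744 and 0.0795, with 2 chains higher and 2 lower in MEKi 1, 4 and 3 in MEKi 0.3 and 3 and 1 in anti-TNF. Each of the 3 was also lost in 5 or 6 of the 8 fits without 1 library. Neither chain of type I nor Col4a1 or Col4a2 passed against Normal in any of the 3 treated groups, and Col18a1 missed the threshold in the fit of all groups. Col18a1 had 75.2 ± 20.7 CPM in MEKi 1, 98.0 ± 11.2 CPM in MEKi 0.3, 87.3 ± 19.1 CPM in anti-TNF and 54.0 ± 9.77 CPM in Normal, and its log2 difference from Normal was 0.86 ± 0.31 (adjusted p = 0.0551) in MEKi 0.3. The position of Col18a1 depended on the setting. In MEKi 0.3 it passed, higher, by DESeq2, by limma-voom, in a fit of only these groups, with the replicate block, with offsets for length, GC content or both, with libraries thinned to the smallest and without the libraries rich in pancreas transcripts. In anti-TNF it passed, higher, by limma-voom, in a fit of only these groups with or without the block and without the libraries rich in pancreas transcripts. Without those libraries 5 chains rose and 5 fell in MEKi 0.3, and 4 rose and 3 fell in anti-TNF.

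Smooth muscle markers were lower in the treated groups as well. Against Normal, all 10 fell in MEKi 1 and MEKi 0.3 and 9 of 10 in anti-TNF, and they summed to 2733 to 4567 CPM in MEKi 1, 1959 to 4359 CPM in MEKi 0.3 and 2358 to 5482 CPM in anti-TNF, against 7422 to 9026 CPM in Normal. Of 6 pericyte markers, 2 fell in MEKi 1, 3 in MEKi 0.3 and 2 in anti-TNF, and of 4 tested adipocyte markers 1 fell in MEKi 1, 4 in MEKi 0.3 and 2 in anti-TNF. Over all genes, 4.79% fell in MEKi 1, 9.06% in MEKi 0.3 and 9.89% in anti-TNF against Normal. The part of these cell types in the falls of Col6a1, Col6a2, Col6a3 and Col14a1 was not tested.

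The remaining calls against Normal concerned type VI, FACIT and minor chains. In MEKi 0.3, Col11a2 rose by 2.00 ± 0.52 (adjusted p = 0.00821), Col6a5 by 0.93 ± 0.26 (adjusted p = 0.012) and Col6a4 by 0.77 ± 0.24 (adjusted p = 0.0275), while Col14a1 fell by 1.21 ± 0.33 (adjusted p = 0.0117), Col20a1 by 1.60 ± 0.45 (adjusted p = 0.0143) and Col6a3 by 0.67 ± 0.21 (adjusted p = 0.0272). In MEKi 1, Col11a2 rose by 1.72 ± 0.53 (adjusted p = 0.0341) and Col6a3 fell by 0.77 ± 0.21 (adjusted p = 0.0181), as did Col8a1 by 1.28 ± 0.39 (adjusted p = 0.0306). Col6a3 had 47.5, 46.4, 47.2 and 51.9 CPM in MEKi 1 and 53.1, 49.5, 54.1 and 50.3 CPM in MEKi 0.3, against 73.3, 82.5, 113 and 60.2 CPM in Normal, so both dosed groups lay under all Normal libraries. With offsets for length and GC content the fall of Col6a3 did not pass, at -0.60 (adjusted p = 0.056) in MEKi 1 and -0.46 (adjusted p = 0.112) in MEKi 0.3, and with the length offset alone neither passed. The call of Col11a2 in MEKi 1 was lost in 6 of the 8 fits without 1 library, with the replicate block over all groups (adjusted p = 0.0517) and with libraries thinned to the smallest (adjusted p = 0.0917). In anti-TNF, Col6a5 rose by 1.03 ± 0.25 (adjusted p = 0.00537), Col6a4 by 0.85 ± 0.24 (adjusted p = 0.0124), and Col14a1 fell by 1.17 ± 0.32 (adjusted p = 0.0126) and Col6a2 by 0.56 ± 0.19 (adjusted p = 0.0323). The calls of Col8a1 in MEKi 1 and Col6a2 in anti-TNF were each lost in 6 of the 8 fits without 1 library. Those of Col6a3 and Col6a4 in MEKi 0.3 were lost in 5 and 4 of 8, and that of Col6a3 in MEKi 1 in 2 of 8. The calls of Col14a1 and Col20a1 in MEKi 0.3 and of Col14a1 in anti-TNF were each lost in 1 of 8. Single libraries also moved the counts of calls: that of MEKi 0.3 was 4 without MEKi 0.3 replicate 4 and 5 without MEKi 0.3 replicate 2 or Normal replicate 2 or 3. That of MEKi 1 was 1 without MEKi 1 replicate 2 or Normal replicate 3, 2 without MEKi 1 replicate 3 or Normal replicate 2, and 3 without MEKi 1 replicate 4 or Normal replicate 1. That of anti-TNF was 3 without anti-TNF replicate 1.

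Genes that modify, cross-link and bind collagen were listed with the chains, and their counts stand beside the 46.4% of all genes that passed in Vehicle against Normal. In that comparison, all 3 called cross-linking enzymes of 5 tested rose: Lox by 2.62 ± 0.52 (adjusted p = 0.000412), Loxl1 by 0.70 ± 0.22 (adjusted p = 0.0113) and Loxl2 by 0.75 ± 0.24 (adjusted p = 0.0129). Lox, which oxidises lysines so that fibrils can be joined, had 16.6 ± 9.24 CPM in Vehicle and 2.73 ± 1.41 CPM in Normal. Of 17 tested genes of hydroxylation, folding and glycosylation, 4 rose and 1 fell, a smaller share than over all genes. Plod3, a lysyl hydroxylase, rose by 1.08 ± 0.20 (adjusted p = 0.000152) and P4hb, a subunit of prolyl 4-hydroxylase, by 0.88 ± 0.20 (adjusted p = 0.00108), while Leprel1, a prolyl 3-hydroxylase, fell by 1.63 ± 0.42 (adjusted p = 0.00331). Of 8 fibril-binding proteoglycans 6 fell and 1 rose. The one that rose, Bgn (biglycan), had 478 ± 83.5 CPM in Vehicle and 219 ± 33.0 CPM in Normal, a log2 fold change of 1.13 ± 0.19 (adjusted p = 7.69e-05). Prelp fell by 0.95 ± 0.20 (adjusted p = 0.000623) and Fmod (fibromodulin) by 2.10 ± 0.49 (adjusted p = 0.00129).

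Partners of the basement membrane moved in both directions, in a smaller share than all genes. Of 16 genes, 1 rose and 4 fell: Lama1, the laminin alpha 1 chain, rose by 3.24 ± 0.55 (adjusted p = 9.61e-05), and the laminin chains Lamb2 and Lamc3 fell by 1.28 ± 0.23 (adjusted p = 0.000115) and 3.13 ± 0.64 (adjusted p = 0.000435). Of 7 collagen-cleaving proteases 4 rose and 1 fell. Mmp14, a membrane-bound collagenase, rose by 0.95 ± 0.21 (adjusted p = 0.000831) and Fap, a fibroblast protease, fell by 1.66 ± 0.45 (adjusted p = 0.00471). Mmp8, the neutrophil collagenase, had 71 counts in the 4 Vehicle libraries and 0 in the 4 Normal libraries, at least 21.9-fold higher against a floor of 3 counts over the Normal group. Of 8 tested collagen receptors (of 10) 1 rose and 2 fell, among them Ddr2, a receptor tyrosine kinase for fibrillar collagen, which fell by 0.94 ± 0.21 (adjusted p = 0.00101), Lair1, an inhibitory receptor of leukocytes, which rose by 1.76 ± 0.44 (adjusted p = 0.00243), and the integrin gene Itga11, which fell by 1.76 ± 0.54 (adjusted p = 0.00986). Of 10 genes of the TGF-beta list 4 rose and 3 fell, with Tgfb1 up by 1.73 ± 0.21 (adjusted p = 1.22e-06), Ltbp2 up by 2.43 ± 0.60 (adjusted p = 0.00221) and Postn (periostin) down, at -1.44 ± 0.30 (adjusted p = 0.000591). Of 6 tested propeptide-processing genes (of 8), Pcolce2, an enhancer of propeptide cleavage, fell (adjusted p = 0.0322), with 1.83 ± 1.25 CPM in Vehicle and 5.29 ± 1.13 CPM in Normal, and none rose.

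In MEKi 1 against Vehicle, where 10.6% of all genes passed, the same lists held 4 genes of hydroxylation and folding that fell and none that rose, 3 cross-linking genes that fell, 3 TGF-beta genes that fell and 1 proteoglycan that fell. Lox fell by 1.99 ± 0.50 (adjusted p = 0.0205), Loxl1 by 0.90 ± 0.22 (adjusted p = 0.0194) and Loxl2 by 0.94 ± 0.24 (adjusted p = 0.0215). Serpinh1, the collagen chaperone, had 76.4 ± 20.8 CPM in MEKi 1 and 145 ± 35.8 CPM in Vehicle and fell by 0.92 ± 0.24 (adjusted p = 0.025). Among the basement membrane partners, Lama1 fell by 2.18 ± 0.50 (adjusted p = 0.0156) and Nid2 (nidogen 2) by 1.17 ± 0.35 (adjusted p = 0.0374). Tgfb1 fell by 0.85 ± 0.20 (adjusted p = 0.0162), Tgfbi by 1.13 ± 0.28 (adjusted p = 0.0197) and Bgn by 0.71 ± 0.19 (adjusted p = 0.0257). No protease, receptor or propeptide-processing gene passed in this comparison. In MEKi 0.3 against Vehicle and in anti-TNF against Isotype, 0 genes of these 8 lists passed. In Isotype against Normal, where 41.2% of all genes passed, 2 cross-linking genes rose, 6 proteoglycans fell and 1 rose, and Lox was 2.51 ± 0.52 (adjusted p = 0.000666) higher.

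**Figure D5:**
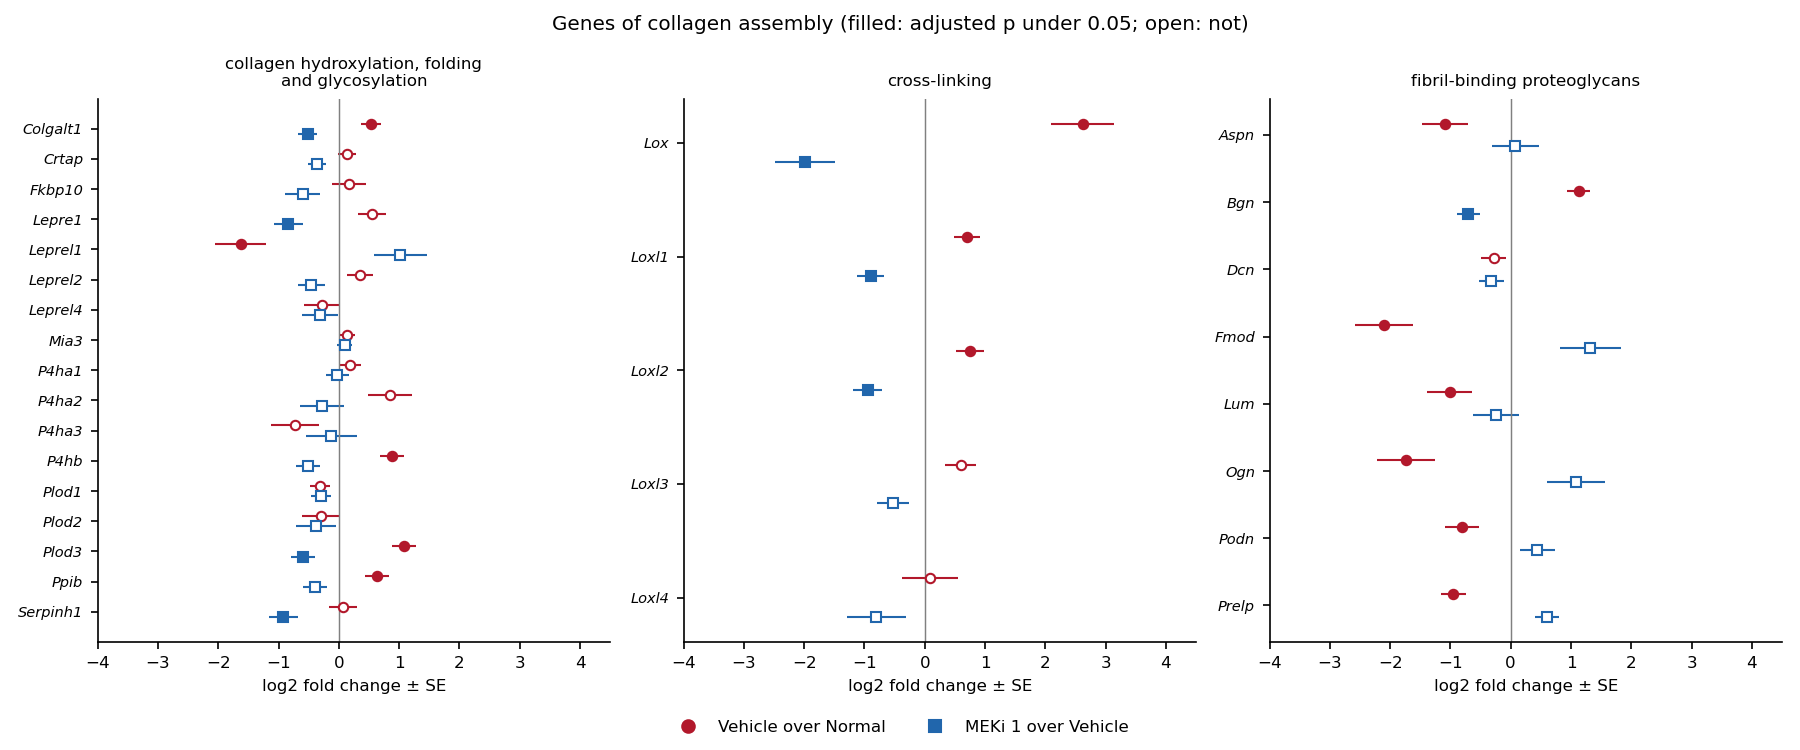
Log2 fold change ± SE (x axis, edgeR) of the tested genes of 3 lists (y axis), for Vehicle over Normal (circles) and MEKi 1 over Vehicle (squares), filled where adjusted p is under 0.05. Lox, Loxl1 and Loxl2 lie to the right of 0 in Vehicle over Normal and to the left in MEKi 1 over Vehicle, and both contrasts share the Vehicle libraries.

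The other 16 chains were too low to be tested. Col2a1 of cartilage and Col19a1 had no count in any library, which at 3 counts of 137388196 in all allows a level of up to 0.0218 CPM. Col10a1 had 1 count in all, Col4a3 6, Col26a1 8, Col9a1 11, Col11a1 20, Col25a1 23, Col4a6 28, Col4a4 and Col6a6 37 each, Col22a1 53, Col9a2 62, Col9a3 67 and Col24a1 78. Col7a1, the anchoring-fibril collagen of skin, was the highest of them with 112 counts. Nothing is said of how these chains differ between groups, since the depth does not allow it. Such floors cover counting error only.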

How the data were processed

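RNA-seq of distal colon was available as whole-number counts per gene symbol, 1 file per sample, deposited by the authors without normalization. Poly(A) RNA was fragmented with RNase III and read on an Ion Torrent sequencer, per the labels' protocols, and the submitters' processing notes name mm10 as genome build. Which aligner and which counter were used is not given in the sources used here. A deposited table over all samples repeats these columns, partly under other names, and served only as an alternative. Library totals of 3052940 to 10587555 counts limit the precision of chains under about 5 CPM.

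Genes passing edgeR's filter (filterByExpr by group) were scaled by TMM and fitted with robust quasi-likelihood over all 24 libraries (edgeR 4.0.16, R 4.3.3). Each p-value was adjusted by Benjamini-Hochberg over 14773 genes, with a threshold of 0.05, and SE is the log2 fold change divided by the root of F. The common dispersion was 0.0539. Offsets used a lowess span of 0.3. Alternatives used DESeq2 1.42.0 and limma-voom (limma 3.58.1) with sample weights, other scalings and filters, a replicate block, and libraries left out in turn. The scripts were tested on simulated data. No library pair of a group was a duplicate: chi-square per gene was 5.38 to 59.9 over genes with at least 20 counts. Lengths, positions and overlaps came from GENCODE M21, which matched 40422 symbols, and promoters from RefSeq on GRCm38.p6. In Vehicle and MEKi 0.3, libraries of the same replicate number deviated together weakly, with correlations of 0.125 to 0.184 over genes. These numbers were therefore read as a possible pairing, which comes from the data and not from the labels. Comparisons not read as paired also reached such values, with -0.395 to 0.165 in Isotype against Vehicle and 0.0862 to 0.342 in anti-TNF against Isotype. The pairing is thus not established.

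The members and lists were chosen with earlier results of these data known. Values in every library are given for the main chains of types I, III, IV, V, VI, XV and XVIII, with up to 6 further chains per comparison by smallest p (3 where none passed), and up to 3 genes of each other list. The full count of basement membrane partners in MEKi 1 against Vehicle is not reported here.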

Additional observations from a re-analysis of the deposited data

Results flagged for a closer look

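Of 168 groups of 4 libraries examined over 28 quantities, 10 held a library far from the other 3, and chance gives about 1 group in 20. Isotype replicate 1 stood apart in Col3a1 at 1500.0 CPM (nearest library 578 CPM), in the sum of fibrillar chains at 3049 CPM (nearest 1382 CPM) and in the sum of all chains at 5257 CPM (nearest 2550.0 CPM). It also carried 4351 CPM of pancreas transcripts. In the ratio of Col3a1 to Col1a1, Isotype replicate 3 stood low at 1.44 (nearest 2.53).

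Among anti-TNF libraries, replicate 4 was low in Col1a2 at 241 CPM (nearest 277 CPM) and high in Col6a2 at 183 CPM (nearest 123 CPM). Replicate 3 was low in Col5a1 at 61.3 CPM (nearest 67.2 CPM), and replicate 2 was low in Col1a1 per Col1a2 at 0.544 (nearest 0.734). MEKi 0.3 replicate 4 was high in Col4a2 at 236 CPM (nearest 171 CPM), and Normal replicate 4 was low in Col4a1 at 160.4 CPM (nearest 208 CPM).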

How the results depend on the processing

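The column names of the series table gave 0 chains past the threshold in Vehicle, Isotype, MEKi 0.3, MEKi 1 and anti-TNF against Normal and in MEKi 1 against Vehicle. They also turned 24 fold changes round; the cause was not tested beyond the exchange of names. The values were, against Normal, Col18a1 -0.17, Col6a4 -0.38, Col4a1 -0.051, Col1a2 -0.20 and Col5a2 -0.21 in Vehicle, and Col11a2 -0.73 in Isotype, -0.14 in MEKi 0.3 and -0.66 in MEKi 1. Against Vehicle they were Col4a2 0.37, Col1a1 0.41 and Col4a1 0.46 in MEKi 0.3, Col4a1 0.26, Col4a2 0.31, Col1a1 0.55, Col1a2 0.33, Col18a1 0.59, Col5a2 0.054 and Col14a1 -0.69 in MEKi 1, and Col4a5 -0.47, Col8a2 -0.71 and Col6a5 0.45 in Isotype. For the effect of MEKi 1 minus that of anti-TNF they were Col6a5 0.45, Col8a1 0.19 and Col23a1 -0.084.

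Of the other alternatives, limma-voom gave 6 chains in MEKi 0.3 and 13 in MEKi 1 against Vehicle, 12 in anti-TNF against Normal and 1 for the difference of effects. In MEKi 1 against Vehicle, no filter on low counts gave 4 and offsets for length and GC content gave 11. In MEKi 1 against Normal, a mean of at least 5 CPM gave 3. The replicate block gave 3 chains in MEKi 0.3 against Vehicle and, over all groups, 3 in MEKi 1 against Normal; over all groups it kept every other count within 1.5 times. Within fits of only the groups compared, it gave 5 chains instead of 8 in anti-TNF and 4 instead of 7 in MEKi 1 against Normal, where the libraries may share only a number. Leaving out 1 library gave 14 to 15 chains in Vehicle and 12 to 16 in Isotype against Normal, 0 to 1 in MEKi 0.3 and 0 to 9 in MEKi 1 against Vehicle, and 4 to 8, 1 to 5 and 3 to 9 in MEKi 0.3, MEKi 1 and anti-TNF against Normal. It gave 0 in the other comparisons. The cause was not tested, apart from the fewer libraries in each fit. Depth limits the 16 untested chains and Col8a2, Col11a2, Col17a1 and Col20a1, which have few counts per library.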
